A study of Mus musculus with 16 samples.

Results

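The chitinase-like proteins were followed in mouse ear skin through their 3 genes, Chil1, Chil3 and Chil4, taken by symbol from a table of 48440 genes. Ear skin of B6 mice was sequenced in 4 groups of 4 libraries: high-fat diet (HFD) with PMA, normal diet (ND) with PMA, HFD untreated and ND untreated. PMA, a phorbol ester, inflames skin through protein kinase C. It was applied at 200 ng per ear with collection 24 h later, and the HFD lasted 8 weeks. The labels give neither age nor sex, and do not say whether untreated ears received solvent. Each group is given as 4 mice, so a library was taken as 1 mouse. Levels are CPM, counts relative to TMM-scaled library totals, and changes are log2 fold changes ± SE from edgeR's quasi-likelihood test over 17604 genes. The comparisons share groups, so they are not independent of each other. A gene was called at a Benjamini-Hochberg-adjusted p below 0.05.

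Chitinase-like proteins are secreted lectins of the chitinase family (GH18, the glycoside hydrolases that cleave chitin). They keep the chitin-binding fold but lack enzyme activity. Chil1 is made by macrophages, neutrophils, epithelia and chondrocytes and is known for its part in tissue inflammation and repair. Chil3 (Ym1) is a product of mouse monocytes, macrophages and neutrophils and is widely used as a marker of alternatively activated macrophages. Chil4 (Ym2), its close paralog, is known mainly from epithelia of the mouse airway and stomach in type 2 inflammation.

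Library totals ran from 7739487 to 15571389 counts, so 1 CPM stood for 7.98 to 15.5 counts. Pearson's r of log2 CPM between libraries of 1 group was 0.926 to 0.959, and their counts differed by more than sampling noise. The ID series of the libraries (RHS or RHP, of unstated meaning) was RHS for all 4 ND untreated libraries and for HFD untreated replicate 1, and RHP for the others. The ear skin label was checked on keratinocyte genes, which summed to between 12790 and 28950 CPM in every library. Cartilage genes were also present, at 207.1 to 561.4 CPM. In such bulk RNA, fewer cells of a type and less RNA per cell cannot be told apart.

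Chil1 was the most abundant of the 3 genes in every library, and its 4 groups lay apart. Chil1 (ENSMUSG00000064246.10, chromosome 1, 134182176 to 134190181, + strand, 10 exons, GENCODE M21 on GRCm38) stood at 1894, 2537, 2035 and 1297 CPM in HFD PMA replicates 1 to 4. It stood at 652.8, 1044, 758.3 and 686.5 CPM in ND PMA replicates 1 to 4. In untreated skin it was 222.5, 304.2, 244.2 and 119.2 CPM in HFD replicates and 70.6, 78.7, 50.46 and 97.07 CPM in ND replicates. No group overlapped with its neighbour in this order. In HFD PMA skin Chil1 took 0.127 to 0.245% of all counts and ranked between 24th and 63rd of all genes by count. In ND untreated skin it took 0.00508 to 0.01% and ranked between 2339th and 4492nd.

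Chil3 differed between PMA-treated and untreated skin and not detectably between diets. Chil3 (ENSMUSG00000040809.10, chromosome 3, 106147554 to 106167564, - strand, 11 exons) stood at 47.56, 65.9, 58.79 and 28.46 CPM in HFD PMA replicates 1 to 4. The ND PMA replicates had 76.31, 53.13, 82.72 and 39.67 CPM. These groups overlapped, with 3 of the 4 HFD values inside the ND range. In untreated skin Chil3 was 2.842, 0.1546, 0 and 1.412 CPM in HFD replicates, which is 23, 2, 0 and 13 counts. It was 6.418, 1.041, 0.4806 and 2.244 CPM in ND replicates, which is 52, 11, 5 and 20 counts. The untreated groups overlapped as well, and their levels rest on few counts.

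Chil4 was at the edge of detection. Chil4 (ENSMUSG00000063779.6, chromosome 3, 106201490 to 106219507, - strand, 11 exons) had 0 counts in 14 of the 16 libraries. It had 4 counts in ND PMA replicate 4 (0.4111 CPM) and 8 counts in HFD untreated replicate 1 (0.9885 CPM). A count of 0 allows up to 3 counts per library, or 0.193 to 0.376 CPM at these depths, counting error only. It did not pass the filter on low counts, so 2 of the 3 genes were tested across all genes. The exact two-sided permutation test of its CPM gave p = 1 in each of the 4 group comparisons, and no direction can be given.

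**Figure D1:**
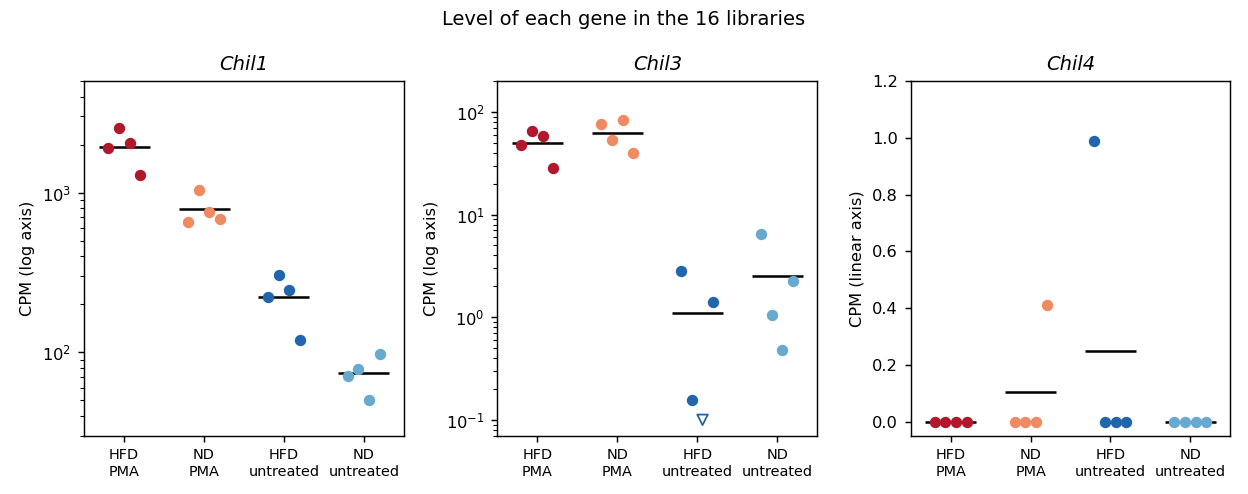
CPM of Chil1, Chil3 (log axes) and Chil4 (linear axis) in each of the 16 libraries; points are libraries in replicate order, lines are means of 4, and the open triangle is a library with 0 counts, drawn at the foot of the axis. Chil1 steps down from HFD PMA to ND untreated without overlap, Chil3 separates by PMA and overlaps between diets, and Chil4 has counts in 2 libraries.

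The comparison of PMA-treated with untreated skin asked what the irritant did to these genes under each diet. In HFD mice Chil1 averaged 1941 ± 510 CPM in PMA-treated and 223 ± 77.1 CPM in untreated skin (SD, n = 4 each). That is a rise of 8.72-fold (log2 fold change 3.12 ± 0.26, edgeR BH-adjusted p = 5.64e-07), and only 6 genes had a smaller p in that comparison. In ND mice Chil1 averaged 785 ± 178 CPM in PMA-treated and 74.2 ± 19.3 CPM in untreated skin, a rise of 10.6-fold (log2 fold change 3.40 ± 0.27, edgeR BH-adjusted p = 9.39e-08). Both rises were larger than the spread between libraries. With the library ID series as a covariate the log2 fold change in ND mice was 3.40 ± 0.45 (edgeR BH-adjusted p = 0.00023).

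Chil3 also rose with PMA, over a level near 0 in untreated skin. In HFD mice it averaged 50.2 ± 16.3 CPM in PMA-treated and 1.10 ± 1.32 CPM in untreated skin (log2 fold change 5.72 ± 0.80, edgeR BH-adjusted p = 0.000286). In ND mice it averaged 63.0 ± 20.1 CPM in PMA-treated and 2.55 ± 2.68 CPM in untreated skin (log2 fold change 4.69 ± 0.72, edgeR BH-adjusted p = 0.000445). The size of both folds depends on the few counts in untreated skin. Without ND untreated replicate 1 the log2 fold change in ND mice was 5.67, and without HFD untreated replicate 1 that in HFD mice was 6.81. With the library ID series as a covariate the log2 fold change in ND mice was 7.35 ± 1.44 (edgeR BH-adjusted p = 0.0103), and in HFD mice 6.81 ± 0.85. Both tested genes rose under both diets, where 11.9% of all genes were called in HFD mice (7.34% as higher) and 12.9% in ND mice (8.96% as higher). Groups lay apart in the higher direction for 10.8% of all genes in HFD and 10.6% in ND mice.

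The comparison of diets asked whether the same genes differed between HFD and ND mice. In PMA-treated skin Chil1 was 2.47-fold higher in HFD than in ND mice (log2 fold change 1.30 ± 0.25, edgeR BH-adjusted p = 0.00895), with every HFD library above every ND library. In untreated skin it was 3-fold higher in HFD than in ND mice (log2 fold change 1.59 ± 0.25, edgeR BH-adjusted p = 0.00108), again without overlap. Chil1 was 1 of the 2 tested genes called in each diet comparison, beside 2.2% of all genes in PMA-treated skin (0.943% as higher) and 3.93% in untreated skin (2.87% as higher). The HFD group lay wholly above the ND group for 3.93% of genes in PMA-treated and 7.18% in untreated skin. HFD untreated replicate 1, the only HFD untreated library of the RHS series, had 222.5 CPM, above the 50.46 to 97.07 CPM of the ND untreated libraries of that series. With the series as a covariate the untreated difference kept its size (log2 fold change 1.58 ± 0.36, edgeR BH-adjusted p = 0.039).

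Chil3 was not called for diet. In PMA-treated skin its log2 fold change of HFD over ND was -0.33 ± 0.58 (edgeR BH-adjusted p = 0.853). In untreated skin it was -1.36 ± 0.88 (edgeR BH-adjusted p = 0.481), and 0.22 ± 1.05 with the library ID series as a covariate, so its sign is not settled there. Without HFD untreated replicate 1 it was -2.44, and without ND untreated replicate 1 it was -0.38. The errors leave room for differences of either sign in untreated skin.

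The interaction asked whether the diet changed the response to PMA. It was -0.28 ± 0.35 for Chil1 and 1.04 ± 1.05 for Chil3 on the log2 scale (edgeR BH-adjusted p = 0.999 for both). The value for Chil3 was -0.55 ± 1.17 with the library ID series as a covariate, 2.16 without HFD untreated replicate 1 and 0.05 without ND untreated replicate 1. Of all genes 0.00568% were called, which is 1 gene (815 at an unadjusted p below 0.05, and 22 called by DESeq2). A difference between diets in the PMA response of Chil1 or Chil3 was not detected.

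Whether the 2 genes behaved unequally was tested on their ratio in each library, a test added after the values had been seen. In PMA-treated skin the log2 ratio of Chil1 over Chil3 (as CPM) was 5.30 ± 0.16 in HFD and 3.67 ± 0.62 in ND mice (SD, n = 4 each). All 4 HFD values, from 5.11 to 5.50, lay above the ND values, from 3.09 to 4.29. The exact two-sided permutation test gave p = 0.0286, the smallest that 4 against 4 can give, and 0.0571 after BH adjustment over the 8 ratio comparisons made. The other 3 comparisons of this ratio, counted among the 8, involve untreated skin, where a Chil3 count as low as 0 leaves the ratio set by the prior count of 2, so they are not used here. Across the 8 PMA-treated libraries the log2 CPM of Chil1 and Chil3 had Pearson's r of -0.111, given as a description of libraries from both diets.

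**Figure D2:**
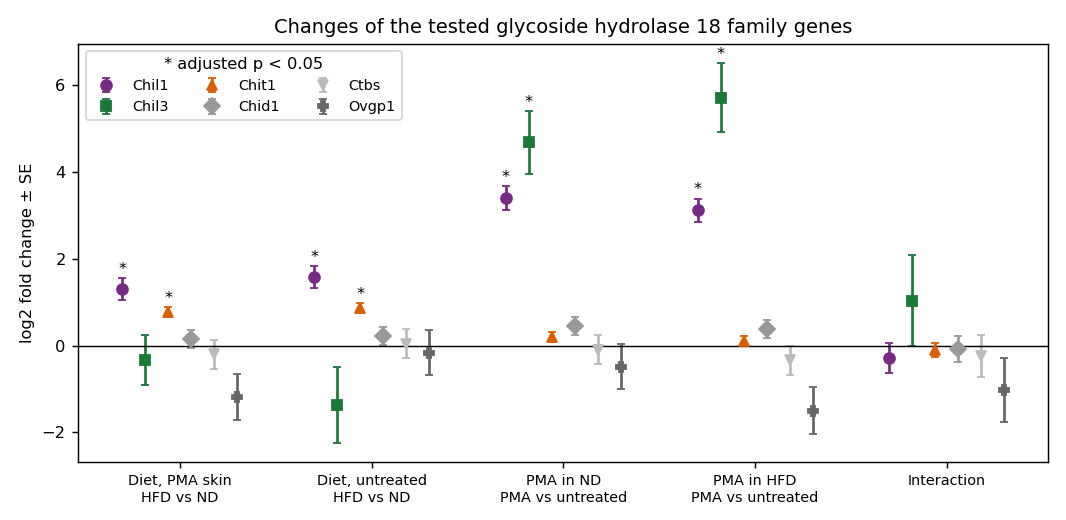
Log2 fold changes with SE (edgeR) of the 6 tested chitinase family genes in the 4 group comparisons and the interaction; asterisks mark an adjusted p below 0.05. Chil1 is above 0 in all 4 group comparisons, Chil3 only passes in the PMA comparisons, and Chit1 only in the diet comparisons.

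The wider chitinase family holds enzymes as well as lectins, and 6 of its 10 genes on the list passed the count filter. With PMA 2 of the 6 rose under either diet, the already reported Chil1 and Chil3, and none fell. Over all genes 7.34% were called as higher in HFD and 8.96% in ND mice. The median log2 fold change of the 6 was 0.24 in HFD and 0.33 in ND mice, beside -0.02 and 0.0013 over all genes. In the diet comparisons 2 of the 6 rose, Chil1 and Chit1, and none fell. Their median was -0.02 in PMA-treated and 0.14 in untreated skin, beside -0.03 and -0.02 over all genes.

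Chit1, a chitinase of the family (chromosome 1, 134111242 to 134151540), ends 30.6 kb before the start of Chil1 on the same strand. It had 414.7, 430.8, 547.5 and 429.8 CPM in HFD PMA replicates 1 to 4 and 245.8, 242.5, 294.2 and 284.7 CPM in ND PMA replicates. In untreated skin it had 409.4, 460.7, 416.4 and 404.6 CPM in HFD and 215.2, 222.5, 278.3 and 212.2 CPM in ND replicates. Chit1 thus sorted by diet: it was higher in HFD than in ND mice by a log2 fold change of 0.77 ± 0.12 in PMA-treated skin (edgeR BH-adjusted p = 0.00225) and 0.87 ± 0.12 in untreated skin (edgeR BH-adjusted p = 0.000264). For PMA against untreated skin it was 0.11 ± 0.12 in HFD (edgeR BH-adjusted p = 0.642) and 0.20 ± 0.12 in ND mice (edgeR BH-adjusted p = 0.304).

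The 2 neighbours were compared through their ratio in each library, also a test added after the values had been seen. Their log2 ratio, Chil1 over Chit1 as CPM, was 2.06 ± 0.41 in PMA-treated and -1.002 ± 0.52 in untreated HFD skin, and 1.54 ± 0.38 in PMA-treated and -1.67 ± 0.56 in untreated ND skin (SD, n = 4 each). Both differences had an exact two-sided permutation p of 0.0286 (0.0571 after BH adjustment over 8). Per kb of gene length Chil1 stood at 1.95 to 3.81 times Chit1 in HFD PMA and 1.56 to 2.79 times in ND PMA libraries. In untreated skin it stood at 0.191 to 0.427 times Chit1 in HFD and 0.117 to 0.296 times in ND libraries. Gene length here is that of all annotated exons merged, 2804 bases for Chil1 and 1815 for Chit1. The longest transcript of Chil1 has 1839 bases and that of Chit1 1815, and by those lengths Chil1 would stand higher against Chit1. For diet the ratio of the neighbours was not shown to differ, with p = 0.114 in PMA-treated and p = 0.143 in untreated skin (exact permutation test).

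The remaining family genes were low or steady. Chid1, encoding a lysosomal chitinase domain protein, averaged 35.7 ± 8.71 CPM in HFD PMA, 32.1 ± 1.13 CPM in ND PMA, 27.4 ± 5.76 CPM in HFD untreated and 23.4 ± 5.40 CPM in ND untreated skin. Ctbs, the lysosomal chitobiase that takes part in glycoprotein breakdown, averaged between 6.48 and 8.16 CPM in the 4 groups. Ovgp1, known as a glycoprotein of the oviduct, averaged between 1.13 and 3.63 CPM and shares 28.7% of its exon bases with the transcript model Gm42890, so its counts are uncertain. None of these 3 was called in any comparison. Chia1, the acidic mammalian chitinase of stomach and lung, had at most 18 counts in a library, Chil5 at most 9 and Chil6 at most 12, and none of the 3 passed the filter.

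**Figure D3:**
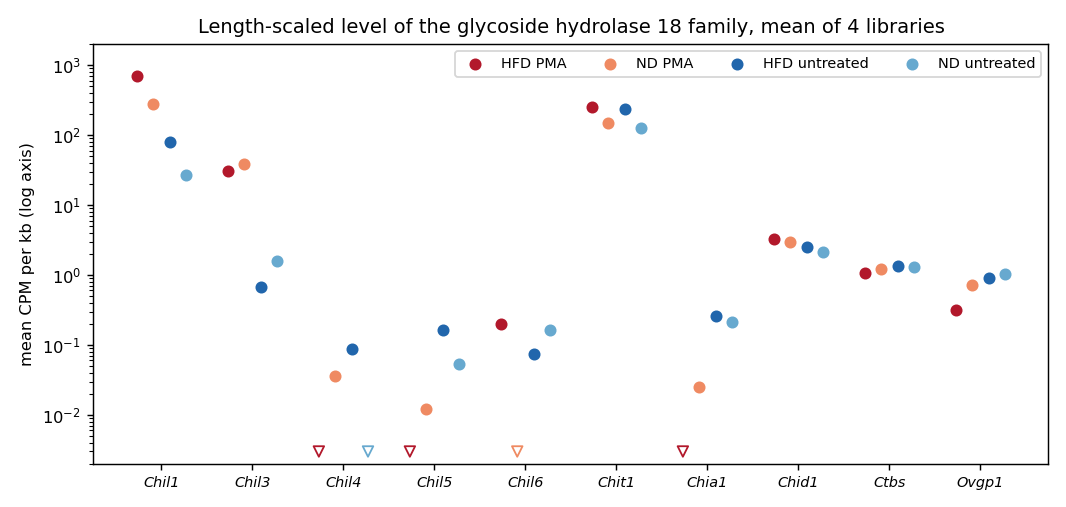
Mean CPM per kb of gene length (all annotated exons merged; log axis, 4 libraries per group) for the 10 chitinase family genes; open triangles mark groups with 0 counts, drawn at the foot of the axis. Per length, Chil1 reached 692 CPM per kb in HFD PMA skin and Chit1 251, while Chil4, Chil5, Chil6 and Chia1 stayed under 0.3 in every group.

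The genes of the Chil3 cluster could in principle share reads, since Chil3 and Chil4 are close copies 33.9 kb apart. Their GENCODE transcripts were 94.4% identical over 1538 aligned bases. No stretch as long as 1 read was shared exactly, and 18.5% of stretches of 50 bases were, so short alignments are uncertain. The sum of both genes gave the same calls as Chil3 alone. No exon base of Chil1, Chil3 or Chil4 was shared with another annotated gene.

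The start regions of Chil3 and Chil4 are shown because 1 of these near-identical genes had 227 to 1145 counts in PMA-treated libraries and the other at most 4. Each window holds 250 bases before and 50 after the gene's start (RefSeq, GRCm38.p6), on chr3:106167515-106167814 and chr3:106219430-106219729, both - strand, 5′ to 3′. Capitals mark bases that differ or have no partner between them, and the ends that lie outside their overlap are in lower case.
Chil3: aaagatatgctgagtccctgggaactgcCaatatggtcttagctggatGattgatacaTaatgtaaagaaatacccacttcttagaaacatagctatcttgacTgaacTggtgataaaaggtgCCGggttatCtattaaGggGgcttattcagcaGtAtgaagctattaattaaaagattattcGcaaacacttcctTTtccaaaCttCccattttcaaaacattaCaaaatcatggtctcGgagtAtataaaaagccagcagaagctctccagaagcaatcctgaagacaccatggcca
Chil4: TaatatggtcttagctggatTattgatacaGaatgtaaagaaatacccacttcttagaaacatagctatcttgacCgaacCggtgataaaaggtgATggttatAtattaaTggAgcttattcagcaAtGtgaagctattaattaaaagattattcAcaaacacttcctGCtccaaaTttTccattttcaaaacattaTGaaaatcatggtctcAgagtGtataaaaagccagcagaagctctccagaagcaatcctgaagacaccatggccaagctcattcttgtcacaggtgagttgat
The windows were identical at 251 of 271 aligned bases (92.6%). The TATA box letters TATAAA, found in 13.6% of 32851 promoter windows on either strand, occurred in both. They began 3 bases before the annotated start of Chil3 and 31 before that of Chil4, so the RefSeq starts of the 2 genes are not at matching bases. The C/EBP letters TTGCNNAA, found in 10.8% of windows, matched in Chil4 and not in Chil3. The letters of AP-1 (TGANTCA, 7.81% of windows), of STAT6 (6.95%) and of PU.1 (GAGGAA, 28.3%) were in neither window.

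The start region of Chil1 is given because this gene moved with both diet and PMA (chr1:134181906-134182205, + strand, RefSeq, GRCm38.p6). Capitals mark a match of the NF-kB motif, found in 8.46% of windows.
Chil1: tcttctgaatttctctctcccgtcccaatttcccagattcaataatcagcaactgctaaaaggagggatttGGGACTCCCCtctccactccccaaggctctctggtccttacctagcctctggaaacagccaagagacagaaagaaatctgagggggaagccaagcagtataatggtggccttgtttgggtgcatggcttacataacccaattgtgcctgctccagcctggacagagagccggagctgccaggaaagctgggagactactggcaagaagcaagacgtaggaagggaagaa
The match begins 179 bases before the start and reads on both strands. None of the other 5 motifs was found in this window. In the window of Chit1 the AP-1 letters were found 52 bases before its start. A match or its absence describes these letters alone.

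Leukocyte markers moved with PMA beside both genes, and their part in the changes was not tested. The 13 neutrophil genes summed to 327.2 to 1275 CPM in HFD PMA, 106.2 to 326.5 CPM in ND PMA, 40.03 to 69.69 CPM in HFD untreated and 32.34 to 58.35 CPM in ND untreated libraries. In every HFD PMA library S100a8 and S100a9 held most of this sum, at 748.7 and 366.2 of 1275 CPM in replicate 1. The higher sums of HFD PMA skin thus rest mainly on these genes. Of 9 tested neutrophil genes 7 rose and 1 fell with PMA in HFD mice, and 4 rose and none fell in ND mice. Over all 17604 genes 7.34% were called as higher and 809 genes as lower with PMA in HFD mice. In ND mice these were 8.96% and 702 genes, and the PMA counts of the lists below stand beside the same values. Csf3r, the receptor for the neutrophil growth factor, averaged 43.2 CPM in PMA-treated and 2.45 CPM in untreated HFD skin, and 33.4 CPM in PMA-treated and 3.12 CPM in untreated ND skin. S100a8, a calcium-binding protein of neutrophils and irritated keratinocytes, averaged 363 CPM in PMA-treated and 8.75 CPM in untreated HFD skin. The granule genes Elane, Mpo and Camp were the only listed neutrophil genes with 0 counts in every HFD PMA library. The others on the list, Ngp and Ltf among them, had counts there. Elane had 0 counts in both untreated groups too. Mpo, the 1 gene that fell with PMA in HFD mice, had 0, 15, 5 and 20 counts in HFD untreated replicates. It had 29, 39, 7 and 14 counts in ND untreated replicates. In ND PMA skin the only listed neutrophil gene with 0 counts in every library was Ly6g, and Mpo had 13 counts in replicate 4.

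The 11 monocyte and macrophage genes summed to 663.6 to 1155 CPM in HFD PMA, 994.9 to 1439 CPM in ND PMA, 565.7 to 757.5 CPM in HFD untreated and 747 to 877.8 CPM in ND untreated libraries. All 11 were tested, and 6 rose and none fell with PMA under either diet. Ccr2, the chemokine receptor of inflammatory monocytes, averaged 86.7 CPM in PMA-treated and 14.3 CPM in untreated HFD skin (log2 fold change 2.60 ± 0.24, edgeR BH-adjusted p = 1.49e-06). In ND mice it averaged 121 CPM in PMA-treated and 18.3 CPM in untreated skin (log2 fold change 2.73 ± 0.24, edgeR BH-adjusted p = 2.75e-07). For diet, no neutrophil gene was called in PMA-treated skin, where S100a8 averaged 363 CPM in HFD and 48.2 CPM in ND mice (log2 fold change 2.90 ± 0.86, edgeR BH-adjusted p = 0.111). In untreated skin 1 neutrophil gene was called, the chemokine receptor Cxcr2, at 18.7 CPM in HFD and 6.35 CPM in ND mice. Among macrophage genes 2 were lower in HFD than in ND mice in PMA-treated skin. Csf1r, the receptor for the macrophage growth factor, averaged 132 CPM in HFD and 212 CPM in ND mice there, and the scavenger receptor Cd163 averaged 58.3 CPM in HFD and 120 CPM in ND mice. In untreated skin Csf1r was the 1 macrophage gene called, lower at 110.2 CPM in HFD and 192 CPM in ND mice. Over all 17604 genes 221 were called as lower in HFD mice in PMA-treated and 186 in untreated skin. As higher 0.943% and 2.87% of genes were called.

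**Figure D4:**
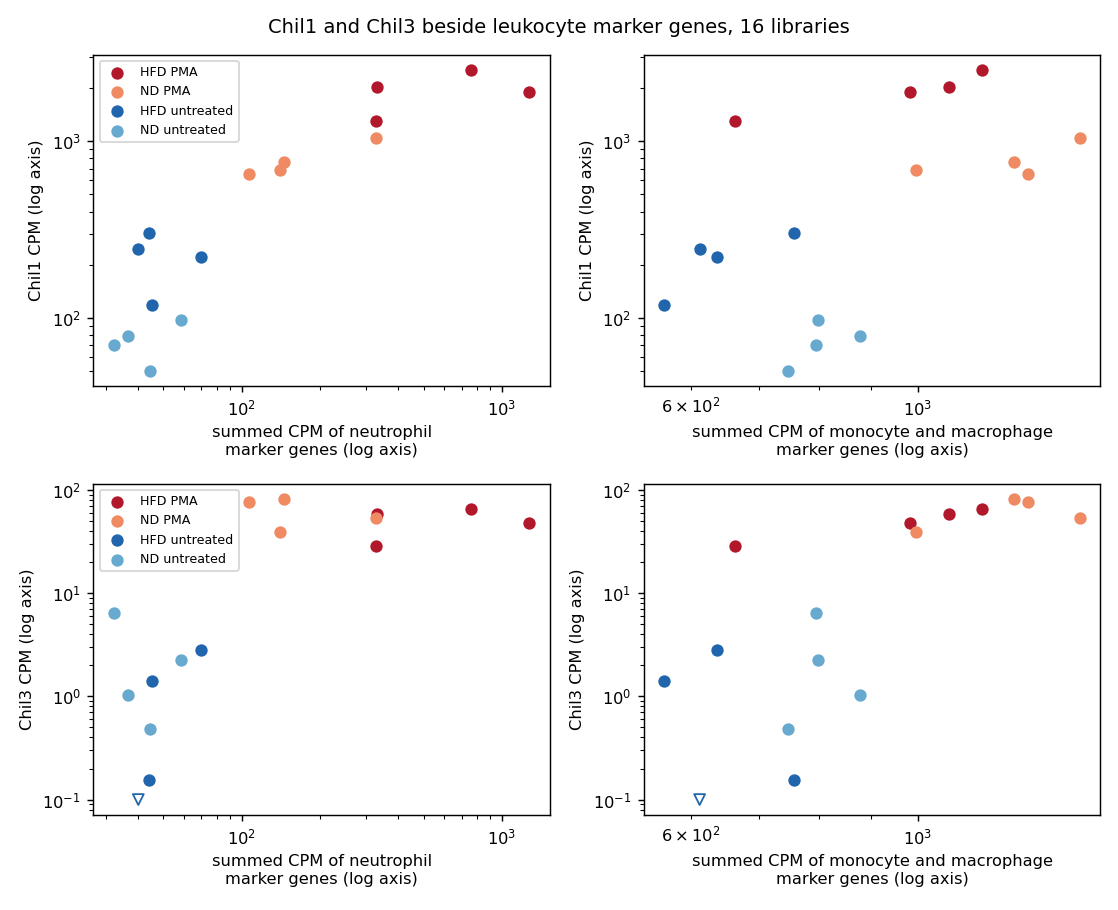
CPM of Chil1 (top) and Chil3 (bottom) against the summed CPM of neutrophil (left) and monocyte and macrophage marker genes (right), 16 libraries, all axes log; the open triangle is a library with 0 counts of Chil3, drawn at the foot of the axis. PMA-treated libraries lie high on both axes for neutrophil genes, and HFD PMA libraries lie above ND PMA libraries for Chil1 but not for Chil3. S100a8 and S100a9 hold most of the neutrophil sum in HFD PMA libraries.

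Other cell types that can make Chil1 were present in the ears. The chondrocyte genes summed to 207.1 to 275.6 CPM in HFD PMA, 327.9 to 502.1 CPM in ND PMA, 317.8 to 373.4 CPM in HFD untreated and 442.6 to 561.4 CPM in ND untreated libraries. Their median sum was lowest in HFD PMA and highest in ND untreated skin, as were those of the fibroblast and adipocyte genes. The median sum of the keratinocyte genes was instead highest in HFD PMA (26760 CPM) and lowest in ND untreated skin (13990 CPM). Of 9 tested chondrocyte genes 4 were lower and none higher in HFD than in ND mice in PMA-treated skin, and 4 fell and none rose with PMA in HFD mice. With PMA in ND mice 1 fell, and none was called for diet in untreated skin. Over all 17604 genes 221 were called as lower for diet in PMA-treated skin. With PMA 809 fell in HFD and 702 in ND mice. The cartilage collagen gene Col2a1, lower in both comparisons of HFD PMA skin, averaged 11.9 CPM in HFD PMA, 37.1 CPM in ND PMA and 24.3 CPM in HFD untreated skin. The keratinocyte genes summed to 26100 to 28950 CPM in HFD PMA, 20370 to 23600 CPM in ND PMA, 20330 to 24560 CPM in HFD untreated and 12790 to 17150 CPM in ND untreated libraries. Of 8 keratinocyte genes 1 rose with diet in PMA-treated and 5 in untreated skin. With PMA 2 rose and 2 fell in HFD mice, and 3 rose in ND mice. Over all genes 0.943% rose with diet in PMA-treated and 2.87% in untreated skin. With PMA 7.34% rose in HFD and 8.96% in ND mice. The part of these cells in the change of Chil1 was not tested.

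Binding partners of chitinase-like proteins were read from a list of 7 genes, of which 6 were tested. Cd44, a hyaluronan receptor that also binds Chil1, rose with PMA and with diet. It averaged 535 ± 22.3 CPM in HFD PMA, 334 ± 63.3 CPM in ND PMA, 248 ± 6.92 CPM in HFD untreated and 162 ± 15.4 CPM in ND untreated skin. Its log2 fold change of HFD over ND was 0.68 ± 0.12 in PMA-treated skin (edgeR BH-adjusted p = 0.00604) and 0.61 ± 0.12 in untreated skin (edgeR BH-adjusted p = 0.00544). Its log2 fold change with PMA was 1.11 ± 0.12 in HFD and 1.04 ± 0.12 in ND mice. The order of the 4 group means was that of Chil1.

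Il13ra2, the interleukin-13 decoy receptor that also binds Chil1, rose with PMA, at 5.92 ± 2.98 CPM in PMA-treated and 2.04 ± 0.52 CPM in untreated HFD skin (edgeR BH-adjusted p = 0.0375). In ND mice it was 5.30 ± 2.22 CPM in PMA-treated and 1.88 ± 0.32 CPM in untreated skin (edgeR BH-adjusted p = 0.0408). Its mean was under 5 CPM, and it was picked after its values were seen. Tmem219, its partner in binding Chil1, averaged 13.4 CPM in PMA-treated and 13.7 CPM in untreated HFD skin and was not called in any comparison. Lgals3, the lectin galectin-3, was higher with diet in untreated skin, at 1549 CPM in HFD and 949 CPM in ND mice (edgeR BH-adjusted p = 0.00728). Sdc1, a heparan sulfate proteoglycan, rose with PMA in HFD mice, at 1335 CPM in PMA-treated and 921 CPM in untreated skin (edgeR BH-adjusted p = 0.00618). Ptgdr2, a prostaglandin D receptor of type 2 lymphocytes, had 1 count in total over the 16 libraries, in HFD untreated skin.

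Chil3 is often read with other genes of type 2 immunity, of which 13 of 19 listed were tested. With PMA 5 rose and none fell under either diet, and with diet 3 fell in PMA-treated skin and none was called in untreated skin. Over all 17604 genes 7.34% rose with PMA in HFD and 8.96% in ND mice, and 221 genes fell with diet in PMA-treated skin. Il4ra, the receptor chain for interleukins 4 and 13, averaged 120 CPM in PMA-treated and 46.4 CPM in untreated HFD skin and 180 CPM in PMA-treated and 59.2 CPM in untreated ND skin. Mrc1, the macrophage mannose receptor, averaged 106 CPM in PMA-treated and 54.5 CPM in untreated HFD skin and 167 CPM in PMA-treated and 74.7 CPM in untreated ND skin. Of 2 other common markers of alternative activation, chosen after their values were seen, neither was called for PMA. Arg1, the arginine-degrading enzyme, averaged 19.7 ± 11.5 CPM in PMA-treated and 12.6 ± 4.92 CPM in untreated HFD skin, and 13.2 ± 5.80 CPM in PMA-treated and 10.8 ± 3.57 CPM in untreated ND skin. Retnla, a secreted resistin-like protein, averaged 1.01 ± 0.50 CPM in PMA-treated and 2.08 ± 0.90 CPM in untreated HFD skin, and 5.26 ± 2.39 CPM in PMA-treated and 3.62 ± 2.38 CPM in untreated ND skin. For diet in PMA-treated skin Retnla was lower in HFD than in ND mice (log2 fold change -2.39 ± 0.58, edgeR BH-adjusted p = 0.032), where Chil3 was not called.

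Of the 8 listed inflammatory cytokines 4 were tested. Il18, a cytokine kept in keratinocytes, was the only one called. It averaged 43.9 CPM in HFD and 25.7 CPM in ND mice in PMA-treated skin, and 66.8 CPM in HFD and 30.1 CPM in ND mice in untreated skin, and was called as higher in both. With PMA it fell in HFD mice, at 43.9 CPM in PMA-treated and 66.8 CPM in untreated skin, the opposite direction to Chil1. For diet 0.943% of all genes were called as higher in PMA-treated and 2.87% in untreated skin. With PMA 809 of 17604 genes fell in HFD mice. The eosinophil genes summed to at most 15.03 CPM in any library, and none of the 3 tested was called in any comparison.

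The genes whose log2 CPM was most like that of Chil1 over the 16 libraries were searched among 11614 genes with a mean of at least 5 CPM. They were Lcn2, an iron-sequestering antimicrobial protein (Pearson's r = 0.981), the carbonic anhydrase Car12 (0.971), the glycolytic enolase Eno1 (0.968), its near-identical copy Eno1b (0.968) and the envelope precursor Sprr2e (0.967). All libraries share the same step between PMA-treated and untreated skin, which enters each of these values. Within the 8 PMA-treated libraries r was 0.975 for Lcn2 and 0.786 for Car12, and within the 8 untreated libraries 0.856 and 0.946. Each set of 8 holds both diets, and the means of Chil1, Lcn2 and Car12 were higher in HFD mice in both. The step between diets thus enters these values too. Lcn2 had 62.49, 91.26, 56.13 and 47.9 CPM in HFD PMA replicates 1 to 4 and 12.86, 28.63, 19.36 and 11.51 CPM in ND PMA replicates. It had 4.819, 3.941, 3.85 and 1.846 CPM in HFD untreated and 0.3703, 1.135, 1.25 and 0.8977 CPM in ND untreated replicates. As with Chil1, replicate 2 was highest and replicate 4 lowest in HFD PMA skin. The replicate order of the 2 genes differed in each other group. In ND untreated skin Chil1 was highest in replicate 4 and Lcn2 in replicate 3. Lcn2 was picked for its r in these same libraries.

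The genes most like Chil3 by the same measure were AB124611 (r = 0.967), the histone methyltransferase Suv39h1 (0.959), the chemokine receptor Ccr1 of monocytes and neutrophils (0.947), Ms4a6d, a membrane protein of myeloid cells (0.942), and Mcfd2, a cofactor of protein export (0.934). Within the 8 PMA-treated libraries these r values lay between 0.27 for Suv39h1 and 0.787 for Ms4a6d. Ms4a6d averaged 51.3 ± 18.5 CPM in HFD PMA, 56.3 ± 13.1 CPM in ND PMA, 8.89 ± 1.11 CPM in HFD untreated and 9.50 ± 2.46 CPM in ND untreated skin (SD, n = 4 each). Ccr1 averaged 32.3 ± 19.3 CPM in HFD PMA, 26.7 ± 8.59 CPM in ND PMA, 2.97 ± 1.07 CPM in HFD untreated and 3.72 ± 1.39 CPM in ND untreated skin. Both sorted by PMA, and neither was called for diet. None of the genes most like Chil1 was among those most like Chil3.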

How the data were processed

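RNA was extracted from ear skin, and 2 ng were made into SMART-Seq2 and Nextera XT libraries sequenced as read pairs, per the labels' protocols. The protocol keeps no strand and adds no molecular identifiers. Raw whole-number counts were deposited by the authors as 1 table, with a length per gene. The submitters' processing notes list STAR 2.3, featureCounts 1.5, GRCm38 and mm10, with no settings in the sources used here.

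Genes were kept with filterByExpr (minimum count 10, total 15), which left 17604 of 48440. Libraries were scaled by TMM and fitted with edgeR 4.0.16 (R 4.3.3, robust quasi-likelihood, 4 group means, 16 libraries). SE is the absolute log2 fold change over the square root of F, and log2 CPM used a prior count of 2. Where IDs shared a symbol, that with the highest count was taken. The procedure was tested on simulated data.

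The genes and lists were chosen with earlier results of these data known. Named were the 3 genes, the chitinase family, for each other list up to 4 called genes of largest change with a mean of at least 5 CPM (otherwise the 2 of smallest p, as values), and the 5 genes of highest r with each gene. The text gives a part of them. No list had a set test.

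Replicate numbers did not pair the libraries: deviations of same-numbered libraries had r from -0.067 to 0.202. Alternatives were DESeq2 1.42.0, RLE factors, no filter, a strict filter (5 CPM in 4 libraries), a replicate block, the library ID series, fits of only the groups compared, summed Chil3 and Chil4, and leaving out each library.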

Additional observations from a re-analysis of the deposited data

Results flagged for a closer look

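Of 198 gene and group pairs examined in groups of 4, 15 (7.58%) had 1 library whose gap to the nearest other exceeded Dixon's critical share of the group's range, where chance gives about 1 in 20. Among nearly silent genes this means counts in a single library. Chil4 had 0.4111 CPM in ND PMA replicate 4 and 0.9885 CPM in HFD untreated replicate 1, with 0 in the others of each group. Chil5 had 0.07224 CPM in ND PMA replicate 3, and Chil6 had 0.4942 CPM in HFD untreated replicate 1. Chia1 had 0.193 CPM in ND PMA replicate 2, 1.955 CPM in HFD untreated replicate 4 and 1.634 CPM in ND untreated replicate 3. Chit1 stood apart at 547.5 CPM in HFD PMA replicate 3 (others 414.7 to 430.8) and at 278.3 CPM in ND untreated replicate 3 (others 212.2 to 222.5). AB124611 was low at 5.345 CPM in ND PMA replicate 4. S100a8 was high at 22.36 CPM in HFD untreated replicate 1 and 8.192 CPM in ND untreated replicate 4, where S100a9 was high too at 3.928 CPM. Csf3r was high at 61.56 CPM in ND PMA replicate 2, and Ccr2 at 16.38 CPM in HFD untreated replicate 2. Chil1 and Chil3 had no such library in any group.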

How the results depend on the processing

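Chil1 kept its direction and its call in the 4 group comparisons under every alternative run and without any single library. Without 1 library its log2 fold change was 1.16 to 1.52 for diet in PMA-treated skin, 1.41 to 1.80 in untreated skin, 2.90 to 3.30 for PMA in HFD mice and 3.20 to 3.56 in ND mice. Its adjusted p reached 0.0403 without 1 library and 0.039 under the other alternatives. Chil3 kept both PMA calls. Without 1 library its diet difference in untreated skin was -2.44 to -0.38 and its interaction 0.05 to 2.16, uncalled throughout. With the library ID series as a covariate its diet difference in untreated skin turned to 0.22 and its interaction to -0.55. All ND untreated libraries are of 1 series, so series and group are told apart only through HFD untreated replicate 1.

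Same-numbered libraries did not deviate together. The fit with a replicate block called 358 genes for diet in PMA-treated and 669 in untreated skin, 1967 for PMA in HFD and 2192 in ND mice, and changed no call of Chil1 or Chil3.

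For diet in PMA-treated skin 387 genes were called, 175 when only the 2 groups were fitted and 850 by DESeq2. For diet in untreated skin 691 were called, 179 with the series covariate and 1149 by DESeq2. For PMA in ND mice 2279 were called, and 453 with the covariate. The interaction called 1 gene, 22 by DESeq2, and 2 each without a filter, with the strict filter, with the block and with the covariate. Called members of the gene lists numbered 20 for diet in PMA-treated skin (7 from 2 groups), 19 in untreated skin (5 with the covariate), 31 for PMA in ND mice (10 with the covariate) and 0 for the interaction (1 by DESeq2).

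Without 1 library, 116 to 307 genes were called for diet in PMA-treated skin (116 without HFD PMA replicate 2, 204 and 238 without ND PMA replicates 3 and 4) and 336 to 636 in untreated skin. The untreated count was 400 to 424 without any 1 HFD library and 352 and 336 without ND replicates 3 and 4. It was 1205 to 2139 for PMA in HFD mice (1205 without HFD PMA replicate 2, 1396 without HFD untreated replicate 3), and 1 to 4 for the interaction (4 without ND untreated replicate 2). List members ranged from 7 to 17 for diet in PMA-treated skin, 11 to 16 in untreated skin and 25 to 41 for PMA in HFD mice. These smaller fits have fewer samples. Otherwise the cause was not tested.

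Scaling by RLE factors moved the share of higher calls for diet in PMA-treated skin to 52.6%, against 42.9% with TMM. Chil4 had no test across genes under DESeq2, the strict filter, the block, the covariate or the 2-group fits. The depth limits Chil3 in untreated skin and Chil4 throughout.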

Other observations

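Other cell types of the ear also differed between the groups. The fibroblast genes summed to 4112 to 6577 CPM in HFD PMA, 7048 to 9833 CPM in ND PMA, 6065 to 7148 CPM in HFD untreated and 9334 to 11810 CPM in ND untreated libraries. Of 8 tested, 4 were lower in HFD than in ND mice in PMA-treated skin and 5 in untreated skin, and none was higher. Col1a1, Col1a2 and Col3a1, which encode the fibrillar collagens of the dermis, were among them in both. Among all 17604 genes, the diet comparisons called 221 as lower in HFD mice where PMA was applied, and 186 where it was not. The adipocyte genes summed to 146.6 to 214.9 CPM in HFD PMA, 207.1 to 379.9 CPM in ND PMA, 261.5 to 436.3 CPM in HFD untreated and 427.9 to 612.6 CPM in ND untreated libraries. With PMA 4 of 7 fell in HFD and 5 of 7 in ND mice, and none rose. Over all 17604 genes 809 fell with PMA in HFD and 702 in ND mice.

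The mast cell genes summed to between 107.6 and 212.2 CPM in any library, with 1 call, Kit, lower with PMA in HFD mice. The Langerhans and dendritic cell genes summed to between 181.5 and 312.4 CPM. Of 9 tested, 2 rose with PMA in ND mice and none was called with PMA in HFD mice. For diet Cd209a was lower in PMA-treated skin, at 33.3 CPM in HFD and 69.4 CPM in ND mice. Epcam was higher in untreated skin, at 203 CPM in HFD and 134 CPM in ND mice. The skeletal muscle genes summed to between 2386 and 7874 CPM, and 3 of 6 fell with PMA in HFD mice. With PMA 8.96% of all 17604 genes rose in ND mice, and 809 genes fell in HFD mice. For diet 221 genes were called as lower in PMA-treated skin and 2.87% as higher in untreated skin.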
